A study of Mus musculus with 9 samples.

Results

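The cells described here are 207 of the 45132 kept barcodes of 9 mouse testes, chosen by the UMIs they hold of contractile genes of smooth muscle. A barcode was kept when it held over 1000 detected genes and under 10% mitochondrial UMIs (unique molecular identifiers, which count captured RNA molecules). It was selected when it held a UMI of at least 3 of 5 genes, Acta2, Myh11, Tagln, Cnn1 and Actg2, and when these genes together made up at least 0.5% of its UMIs. The selected cells held 2028198 UMIs in all, with a median of 7593 UMIs and 3019 genes per cell.

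In the testis, smooth muscle genes are used by peritubular myoid cells and by vascular smooth muscle cells. Peritubular myoid cells are flat, contractile cells that wrap each seminiferous tubule, move sperm and fluid along it and lay down its outer basement membrane together with the Sertoli cells inside. Vascular smooth muscle cells and pericytes, together called mural cells, surround arterioles and capillaries between the tubules. The same actin, myosin and calponin isoforms serve contraction in both, so that these genes alone do not separate them.

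Each library was made from the dissociated testis of 1 mouse of the C57BL/6 strain (backcrossed to C57BL/6 J) at post-natal day 24 by the 10x Genomics 3′ method. The 4 Control mice were littermates or non-littermates of the others, and their alleles at the targeted genes are not given in the labels. The 2 NELF-B cKO mice carried 1 floxed and 1 null allele of Nelfb, which encodes a subunit of the negative elongation factor that holds RNA polymerase II near promoters, together with the Stra8-iCre transgene. The 3 TDP-43 cKO mice carried 1 floxed and 1 null allele of Tardbp, which encodes the RNA- and DNA-binding protein TDP-43, with the same transgene. Recombination removes exons 1 to 4 in the case of Nelfb and exon 3 in that of Tardbp. Stra8-iCre is expressed in spermatogonia, so that smooth muscle cells of both cKOs were not its target but carried 1 null allele of the gene. The comparisons with each cKO used the same 4 Control mice.

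Control 1, 2, 3 and 4 gave 10, 13, 26 and 22 of the cells, in order. NELF-B cKO 1 and 2 gave 4 and 21, and TDP-43 cKO 1, 2 and 3 gave 39, 29 and 43. The values of NELF-B cKO 1 therefore rest on 4 cells and 20159 UMIs, and 1 of these cells held 32.8% of them. Libraries held 119203347 to 159407373 UMIs over all barcodes and 2982 to 8457 kept barcodes. Of 44872 distinct kept barcodes, 260 were kept in more than 1 library. Barcodes of 4 selected cells were among them, and no barcode was selected in 2 libraries. Within a mouse, 10 selected cells fell into 4 sets of barcodes whose counts differed by no more than sampling noise, a pattern found in 7 of 2511 pairs of cells of 1 mouse and in 0 of 16190 pairs of cells of different mice. One such pair in Control 2 held 35329 and 38438 UMIs together with endothelial genes. Counting each set once left 201 cells.

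The 5 selection genes were high in the selected cells and low elsewhere by construction, and their values are given as a description. Acta2, which encodes smooth muscle actin, was summed over the cells of each mouse and divided by their total UMIs to give counts per 1000000 UMIs (CPM), and stood at 11873, 10063, 13194 and 11710 CPM in Control 1 to 4. It was at 5556 and 16019 CPM in NELF-B cKO 1 and 2 and at 13479, 8105 and 11660 CPM in TDP-43 cKO 1 to 3. The Control range lay inside the range of both cKOs. Myh11, smooth muscle myosin heavy chain, averaged 3452 ± 714 CPM (SD, n = 9 mice), and Tagln, the actin-binding protein transgelin, 5275 ± 1899 CPM (SD, n = 9). Cnn1, which encodes calponin and restrains myosin, was found in 144 of 207 cells and ranged over mice from 264.6 to 449 CPM. Actg2, the enteric form of smooth muscle actin, was found in 133 cells and ranged from 177 to 824 CPM. Over all other kept barcodes the means per mouse were 8.49 CPM for Acta2, 3.61 for Myh11, 2.81 for Tagln, 0.473 for Cnn1 and 10.5 for Actg2. In the GRCm38 (mm10) annotation Acta2 lies on chromosome 19 (34241090 to 34255590, minus strand), Myh11 on chromosome 16 (14194535 to 14291372, minus strand), Tagln and Cnn1 on chromosome 9 (45929619 to 45936058, minus strand, and 22099216 to 22109630, plus strand) and Actg2 on chromosome 6 (83512905 to 83536265, minus strand).

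Actg2 differed from the other 4 genes in what surrounded the cells. Free RNA, summed over barcodes of 1 to 100 UMIs, held Actg2 at 49.6, 14.1, 37.3 and 43.6 CPM in Control 1 to 4 and at 26.9 CPM in NELF-B cKO 1, but at 1.84 CPM in NELF-B cKO 2 and at 1.76, 2.71 and 4.50 CPM in TDP-43 cKO 1 to 3. Germ cells by their markers held 7.87 to 26.9 CPM in the same 5 mice and 1.14 to 3.45 CPM in the other 4. The level in the selected cells was above that in free RNA in every mouse, most narrowly in Control 1 at 177 against 49.6 CPM, and the part of free RNA in it was not tested. Acta2 in free RNA was between 6.94 and 63.4 CPM.

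In share of UMIs few cells lay near the threshold, while 36 cells held no more than the 3 genes required. All 5 genes had a UMI in 104 cells, 4 in 67 and 3 in 36. The 5 genes made up 2.25% of UMIs in the median cell and 7.47% in the highest. The lowest selected cell was at 0.501% and 19 were under 0.75%. Of 129 barcodes with at least 3 of the genes that were left out, the highest was at 0.497%, 19 were at 0.25% or more and 67 were under 0.05%. One barcode passed 0.5% with 2 of the genes.

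**Figure D1:**
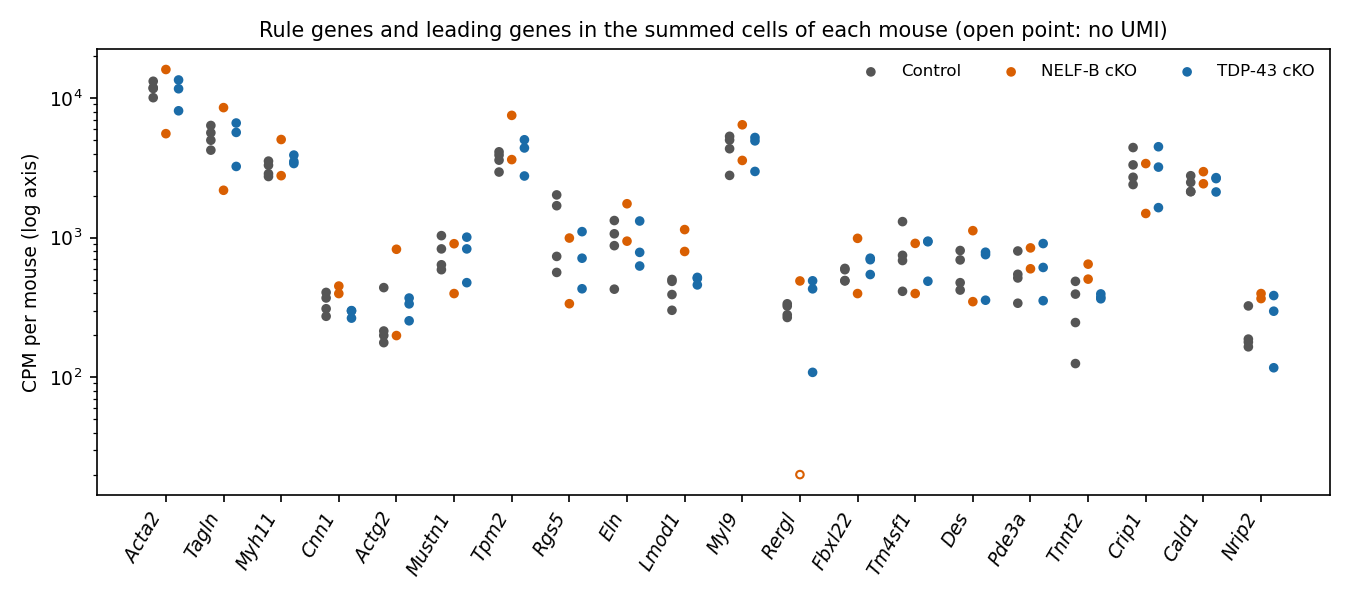
CPM (log axis) of the 5 selection genes and the 15 leading genes in the summed selected cells of each mouse, with 1 point per mouse coloured by genotype and an open point at the foot of the axis for a gene without a UMI. Acta2 lies between 5556 and 16019 CPM. Lmod1 and Tnnt2 are the genes drawn in which both NELF-B cKO mice lie above all other mice. Lmod1 is at 1141 and 795 CPM against 301 to 518 CPM in the other 7, and Tnnt2 at 645 and 504 CPM against 125 to 486 CPM.

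The genes that stood furthest above all other kept barcodes, leaving out the selection genes, included parts of the contractile apparatus together with genes of other kinds, and these too describe the selection and were not tested. The ratio was the mean over mice of the log2 ratio with 1 CPM added to each level, which understates it for genes near 0 elsewhere. Among the 15 genes with the largest ratio, Tpm2 (beta-tropomyosin) averaged 4207 ± 1420 CPM against 18.7 CPM in the other barcodes, Myl9 (regulatory myosin light chain) 4508 ± 1198 against 32.2 and Cald1 (caldesmon) 2487 ± 309 against 40.7 (SD, n = 9 mice). Lmod1, which nucleates smooth muscle actin filaments, averaged 567 ± 253 CPM, and Des, the intermediate filament protein desmin, 640 ± 259 CPM. Tnnt2, a troponin T best known from heart muscle, was found in 135 of 207 cells at 392 ± 150 CPM. Mustn1, a small nuclear protein of the musculoskeletal system, had the largest ratio on that scale, a log2 ratio of 8.88, with 744 ± 229 CPM against 0.544 CPM. Eln, the elastin of elastic fibres, averaged 1012 ± 403 CPM against 4.82 CPM, and Rergl, a small GTPase relative, 302 ± 165 CPM against 0.0404 CPM and no UMI in NELF-B cKO 1. The other genes of the 15 were Rgs5, Fbxl22, Tm4sf1, Pde3a, Crip1 and Nrip2. Of 23 listed genes of the contractile apparatus, 23 had a mean level at least 2 times that of the other barcodes and 21 were at 100 CPM or more.

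The label of peritubular myoid cells held for only part of the cells. Of 207 cells, 159 (76.8%) held UMIs of at least 3 of 10 markers of vascular smooth muscle and pericytes, which were Rgs5, Notch3, Mcam, Gja4, Kcnj8, Abcc9, Pln, Cspg4, Higd1b and Rgs4. The other 48 cells held at most 2 of them. Cyp26b1, the retinoic acid degrading enzyme of the P450 family, had UMIs in 39 of the 48 cells and in 19 of the 159. Rgs5, a regulator of G protein signalling in pericytes and arterioles, had UMIs in 2 of the 48 and in 126 of the 159. Single cells seldom held both: 50 cells held Cyp26b1 alone, 120 held Rgs5 alone, 8 held both and 29 held neither. The whole set is therefore called smooth muscle marker cells below and not peritubular myoid cells.

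**Figure D2:**
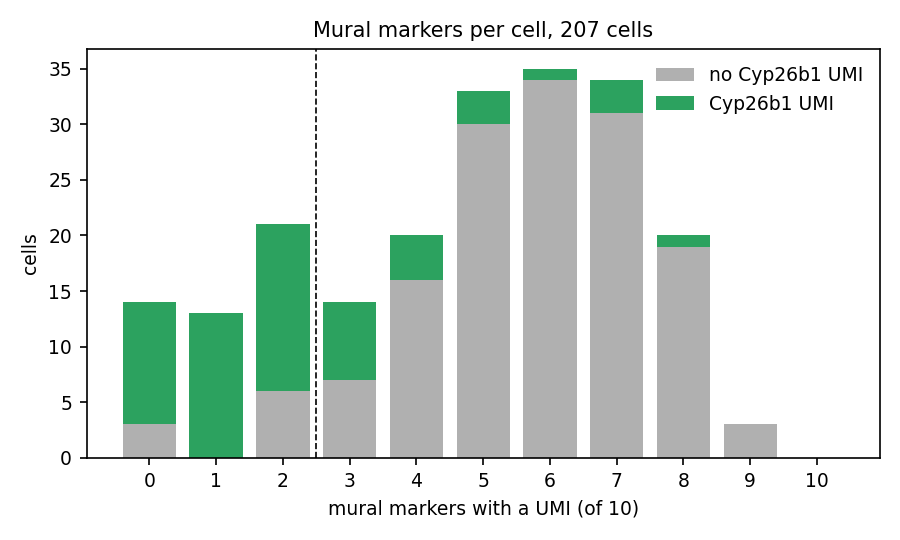
Number of cells (vertical axis) by the number of the 10 mural markers with a UMI (horizontal axis), with cells that hold a Cyp26b1 UMI in green and a dashed line between 2 and 3 markers. Cyp26b1 UMIs are found in 39 of 48 cells left of the line and in 19 of 159 cells right of it.

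The number of mural markers was a range and not a gap, and it moved with depth. There were 21 cells with 2 markers and 14 with 3, on either side of the limit. A limit of 2 markers took in 180 cells (87.0%). After each cell was thinned to 2000 UMIs, which left out 4 shallower cells, 94 of 203 cells (46.3%) still held 3 or more. Median depth was 7873 UMIs in the 159 cells and 5914.5 in the 48, and the selection genes made up a median 2.75% and 1.23% of UMIs. In the thinned cells, Cyp26b1, which is not one of the 10 markers, was found in 14 of 159 cells against 35 of 44.

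Values of the 2 kinds of cells describe a split made on the same cells and were not tested. Of 23 listed genes of the contractile apparatus, 4 were at least 2 times higher in the cells with 3 or more mural markers and none in the others. Tnnt2, which is outside that list, was at 273 CPM in the 159 cells and at 795 CPM in the other 48. Myocd, the coactivator that switches on smooth muscle genes, was at 145 CPM (95% Poisson interval 128 to 165) in the 159 cells with 3 or more mural markers and at 157 (119 to 204) in the other 48. The genes that chose the cells had to be present in both kinds, with Cnn1 at 326 and 334 CPM, Myh11 at 3757 and 2920 CPM, Acta2 at 12875 and 6746 CPM and Tagln at 6434 and 1701 CPM. Eln was at 1047 CPM (999 to 1097) and 981 (881 to 1089). By mouse, Eln in the cells with mural markers was at 188, 883, 1073 and 1324 CPM in Control 1 to 4. It was at 0 and 1953 CPM in NELF-B cKO mice and at 596, 1538 and 753 CPM in TDP-43 cKO mice. In the other 48 cells it was at 823, 0, 1037 and 1330 CPM in Control, 1402 and 1047 in NELF-B cKO and 1220, 861 and 914 in TDP-43 cKO mice. Among 10036 genes at a mean of 10 CPM or more, 11.5% were at least 2 times higher in the cells with mural markers and 11.3% at least 2 times higher in the others, with a median log2 ratio of -0.11. Intervals of the pooled values cover counting error only and leave out the spread between mice. Genes named in the following paragraphs beyond the 4 most abundant of each list were chosen after their values were seen.

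Basement membrane genes were divided between the kinds by chain. Col4a3 and Col4a4, which encode the chains of the specialised type IV collagen network and were named after their values had been seen, were at 2173 CPM (2022 to 2331) and 3126 CPM (2945 to 3315) in the 48 cells and at 346 (318 to 375) and 535 (500.1 to 571) in the 159. In the 159 cells Col4a3 had a UMI in 23 and a median of 0, and 554 of its 578 UMIs lay in 11 cells with 3 or 4 mural markers, the lowest numbers in that kind. Above 4 markers the level was 18.7 CPM. Cyp26b1 was distributed likewise, with 507 of 554 UMIs in 11 such cells and 36.5 CPM above 4 markers. Interstitial cells by their markers held Col4a3 at 162 CPM and Sertoli cells at 33.0 CPM. Lama2, the alpha-2 laminin chain of muscle basement membranes, was at 1110 CPM (1003 to 1225) against 234 (211 to 258). Lama5, the alpha-5 laminin chain common in vessels, went the other way with 11.2 CPM (3.06 to 28.8) against 189 (169 to 211), as did Col18a1, the precursor of endostatin, with 36.5 CPM (19.5 to 62.5) against 340 (313 to 369). By mouse, Col18a1 in the 159 cells ran from 70.7 CPM in Control 1 to 809 CPM in Control 2. Col4a1, the widely expressed type IV collagen chain, was at 1377 and 758 CPM and Sparc, a collagen-binding matrix protein, at 3707 and 2541 CPM. Of 16 listed basement membrane genes, 4 were at least 2 times higher in each kind.

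Fibrillar matrix genes were mostly higher in the cells with fewer mural markers. Of 18 listed genes at 10 CPM or more, 11 were at least 2 times higher there and 2 in the other kind, with a median log2 ratio of -1.31. In the cells with mural markers these UMIs could lie in few cells, as for Mfap4 with a UMI in 14 of 159. Mfap4, a microfibril protein, was at 871 CPM (777 to 974) against 172 (153 to 193), and Col1a2, a chain of type I collagen, at 1678 against 723 CPM. Dcn, the small proteoglycan decorin, was at 661 against 273 CPM, while interstitial cells by their markers held 7712 CPM. Those interstitial cells held Cyp26b1 at 1199 CPM, Pdgfra at 856 CPM and Igfbp6 at 2240 CPM, against 1571, 343 and 992 CPM in the 48 cells. The same interstitial cells held Myh11 at 9.55 CPM, but Myh11 is a selection gene and the selection fixed that difference.

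Hedgehog signalling, by which Sertoli cell-derived desert hedgehog reaches the cells around the tubule, was represented by its receptor and targets. Ptch1, which is both receptor and target, was at 540 CPM (466 to 622) in the 48 cells and at 167 (148 to 188) in the 159. In the 159 cells its median was 0, 220 of its 279 UMIs lay in 13 cells with 3 or 4 mural markers, and the level above 4 markers was 45.9 CPM. Hhip, a hedgehog-binding target, was at 149 CPM (112 to 195) and 21.5 (15.1 to 29.8), Gli1, the transcription factor whose own gene is a target, at 42.2 (23.6 to 69.5) and 13.2 (8.24 to 19.9), and Boc, a coreceptor, at 126 (92.3 to 169) and 31.7 (23.7 to 41.5). Smo, the signal transducer, was at 67.5 and 47.8 CPM and Sufu, an inhibitor, at 53.4 and 32.9. Of 11 listed genes, 7 were at least 2 times higher in the 48 cells and none in the 159.

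A list of contraction agonist receptors and of signalling genes had 14 genes at 10 CPM or more. Of these, 5 were at least 2 times higher in the cells with mural markers and none in the others. Rock1, a kinase (593 against 228 CPM), and Gucy1a1 were among the 5, and the list also held Prkg1 and the GTPase Rhoa. Ednra, an endothelin receptor, was at 127 CPM (110.3 to 145) in the cells with mural markers against 225 (178 to 280) in the 48 cells. Gucy1a1 and Gucy1b1, which form the nitric oxide receptor, were at 364 (336 to 394) and 207 CPM (186 to 231) against 152 (114 to 198) and 22.5 (9.71 to 44.3). Prkg1, the kinase that cyclic GMP activates, was at 1656 and 995 CPM. Cacna1c, the pore of the L-type calcium channel, was at 499 (465 to 534) against 166 (126 to 214), and Ryr2, a calcium release channel, at 52.6 (42.2 to 64.8) against 2.81 (0.0712 to 15.7). Of 15 listed channel and calcium genes at 10 CPM or more, 8 were at least 2 times higher with mural markers and none the other way; Pln, 1 of the 8, is also 1 of the 10 markers that made the split. Mef2c, a transcription factor of muscle and vessels, was at 1001 CPM (954 to 1050) against 188 (146 to 239).

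**Figure D3:**
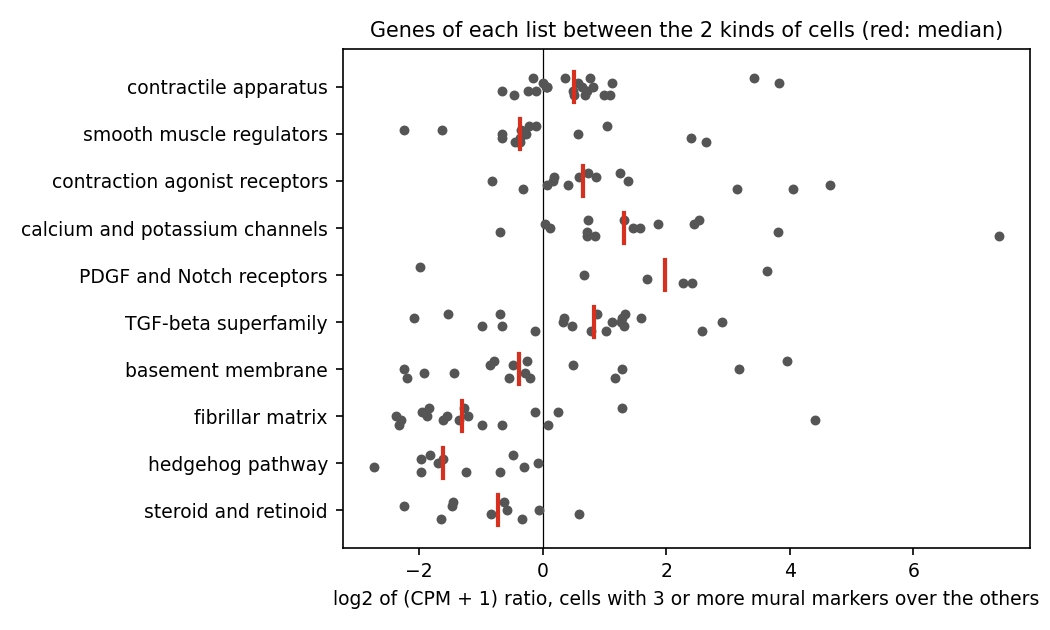
Log2 ratio of (CPM + 1) between the 159 cells with 3 or more mural markers and the other 48 (horizontal axis) for the genes at 10 CPM or more of 10 lists (vertical axis), with 1 point per gene and the list median in red. Medians run from -1.61 for hedgehog genes and -1.31 for fibrillar matrix to 1.32 for calcium and potassium channels and 1.98 for PDGF and Notch receptors, beside -0.11 over all 10036 genes. Notch3, Mcam and Pln are markers that made the split, and without them the last 2 medians are 1.08 over 14 genes and 1.47 over 4 genes.

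Ligands through which peritubular cells are known to act on the tubule were present unevenly. Gdnf, the self-renewal factor of spermatogonial stem cells, had 9 UMIs in 7 of 207 cells, and Lif 1 UMI in 1 cell. Csf1, the macrophage and stem cell factor, had 106 UMIs in 59 cells. Igf1 was at 351 CPM (292 to 419) in the 48 cells and at 77.7 (64.9 to 92.3) in the 159, of which 13 held all of its 130 UMIs. No UMI of Esr2 was found in the 207 cells. Aldh1a2, an enzyme that makes retinoic acid, had 17 UMIs in 16 cells. Of 20 listed niche ligands, 10 were at 10 CPM or more.

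The 2 kinds of cells were not equally represented in every mouse. Cells with 3 or more mural markers made up 8 of 10, 12 of 13, 19 of 26 and 20 of 22 cells in Control 1 to 4, 1 of 4 and 15 of 21 in NELF-B cKO 1 and 2, and 36 of 39, 16 of 29 and 32 of 43 in TDP-43 cKO 1 to 3. Pooled by genotype these are 83.1% of 71 cells, 64.0% of 25 and 75.7% of 111, with exact 95% binomial intervals of 72.3 to 91.0%, 42.5 to 82.0% and 66.6 to 83.3%. These intervals cover the sampling of cells only and leave out the spread between mice. Means over mice were 84.1% ± 9.17, 48.2% ± 32.8 and 74.0% ± 18.6 (SD). Thinned to 2000 UMIs the shares were 57.1%, 24.0% and 44.4%. The level of Cyp26b1 did not follow the share of cells with mural markers in every mouse. In the sums per mouse it was at 500.2, 0, 294 and 909 CPM in Control 1 to 4, at 992 and 775 CPM in NELF-B cKO mice and at 251, 896 and 533 CPM in TDP-43 cKO mice. Control 2, with 12 of 13 cells of the mural kind, had no Cyp26b1 UMI, while Control 4, with 20 of 22, had 909 CPM. Of 245 Cyp26b1 UMIs in Control 4, 205 lay in 3 cells of 31898 to 33917 UMIs that held 3 mural markers, the lowest number for that kind, and no Rgs5 UMI. Control 1 and 3 lay within the range of the TDP-43 cKO mice.

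Markers of other cell types were sought in the smooth muscle marker cells. Of the 207 cells, 16 also met the marker rule of another somatic type, and 38 were mixed in the wider sense that also counts cells whose share of germ marker UMIs was over 20% of the median of germ cells. The 38 were 22 of 71 cells in Control, 4 of 25 in NELF-B cKO and 12 of 111 in TDP-43 cKO. Leaving out mixed barcodes therefore fell unequally on the groups. Macrophage markers were near 0, at 0 to 25.9 CPM summed over 9 genes, with C1qc at 0 in all 3 genotypes. Endothelial markers were at 3199 CPM in Control 2 and at 0 to 683 CPM in the other mice. Interstitial markers were at 545 to 1442 CPM in Control, 992 and 1736 in NELF-B cKO and 899 to 1876 in TDP-43 cKO mice, and Sertoli markers at 193 to 877, 496 to 1214 and 389 to 544 CPM, with Amh at 0 in Control and TDP-43 cKO. Leydig markers were at 79.5 to 278, 149 to 272 and 117 to 694 CPM. Germ cell markers, which a smooth muscle cell should lack, were at 2516, 784, 1530 and 657 CPM in Control 1 to 4, at 1488 and 341 CPM in NELF-B cKO mice and at 78.8, 671 and 847 CPM in TDP-43 cKO mice.

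Smooth muscle marker cells made up a larger part of the kept barcodes in each TDP-43 cKO mouse than in any Control mouse, while their shares of the somatic cells overlapped. They were 0.131%, 0.154%, 0.507% and 0.451% of kept barcodes in Control 1 to 4, 0.0709% and 0.704% in NELF-B cKO mice and 0.988%, 0.959% and 1.25% in TDP-43 cKO mice. All 3 TDP-43 cKO mice lay above all 4 Control mice, with means of 1.06% ± 0.157 and 0.311% ± 0.196 (SD). On the log2 scale the difference was 1.99, or 3.98-fold, with p = 0.0571 in the exact two-sided permutation test over mice, which is the smallest p that 3 against 4 mice can give. With only barcodes of at least 2000 UMIs the difference was 1.28. The NELF-B cKO mice lay on either side of the Control mice, with a log2 difference of -0.17 and p = 0.8 in the same permutation test. Many kept barcodes are germ cells, so that this share moves with their number. Depth differed as well, with a median of 1754 to 6369 UMIs per kept barcode in Control, 5165 and 17312.5 in NELF-B cKO and 14117 to 19254 in TDP-43 cKO mice. The part of depth in the share was not tested. The paper removed clusters of poor quality before it counted cells, and no such step was applied here.

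Among somatic cells, which are the smooth muscle marker cells and the barcodes that meet the marker rule of a single other somatic type, the cells were 1.68%, 2.23%, 6.42% and 4.36% in Control 1 to 4 and 1.60%, 4.48% and 4.99% in TDP-43 cKO 1 to 3. These groups overlap over nearly the whole range, with a log2 difference of 0.02 and p = 0.971 in the same permutation test. The NELF-B cKO mice were at 0.347% and 1.19%, both below every Control mouse, with a log2 difference of -2.26 and p = 0.133 in the permutation test, the smallest that 2 against 4 mice can give. Without mixed barcodes, which left 3 cells in Control 1 and 2 in NELF-B cKO 1, the groups overlapped. Control 1 was then at 0.510% and NELF-B cKO 2 at 1.07%, and p was 0.267 in the same permutation test. Per 100 Sertoli cells there were 5.49, 4.35, 17.6 and 8.03 cells in Control 1 to 4, 1.63 and 8.97 in NELF-B cKO mice and 7.47, 10.7 and 14.1 in TDP-43 cKO mice, with p = 0.533 and p = 0.457 in exact permutation tests. The number of cells per mouse differed from Control by -0.79 on the log2 scale in NELF-B cKO (p = 0.4) and by 1.12 in TDP-43 cKO (p = 0.0571) in the same exact permutation tests. The 8 tests made up 1 family, whose Benjamini-Hochberg adjusted values are 0.229 for the smallest p and 0.971 for the largest. Shares among dissociated cells do not tell how many cells the tissue held.

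**Figure D4:**
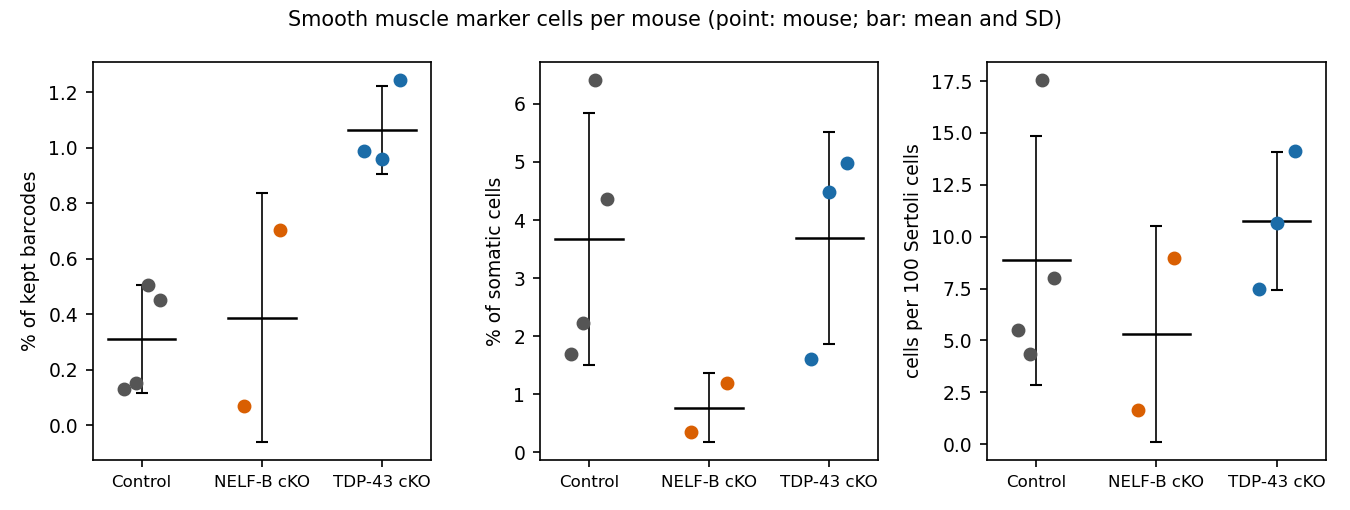
Smooth muscle marker cells of each mouse (points) as a percentage of kept barcodes, as a percentage of somatic cells and per 100 Sertoli cells (vertical axes, left to right), with the mean and SD of each genotype. The TDP-43 cKO mice lie at 0.959 to 1.25% of kept barcodes, above the Control mice at 0.131 to 0.507%, and overlap with them at 1.60 to 4.99% against 1.68 to 6.42% of somatic cells.

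The targeted genes had few UMIs in these cells in every group. Nelfb had 1, 3, 5 and 9 UMIs in Control 1 to 4, 0 and 2 in NELF-B cKO mice and 6, 9 and 15 in TDP-43 cKO mice. Pooled, this gave 25.7 CPM (95% Poisson interval 15.2 to 40.6) in Control and 8.98 CPM (1.09 to 32.4) in NELF-B cKO, and a difference was not detectable at this depth. The gene did not pass the filter on low counts and without that filter had a log2 fold change of -1.45 ± 1.08 (SE) and an adjusted p of 0.913 in edgeR. In germ cells with a Stra8 UMI, where the transgene acts, Nelfb was at 40.4 to 61.2 CPM in the Control mice and at 4.48 and 3.21 CPM in NELF-B cKO mice. Tardbp was at 58.9, 51.1, 74.9 and 51.9 CPM in the smooth muscle marker cells of Control 1 to 4 and at 61.5, 28.4 and 51.8 CPM in those of TDP-43 cKO 1 to 3, with a log2 fold change of -0.33 ± 0.38 (SE) and an adjusted p of 0.992 in edgeR. The groups overlapped. In germ cells with a Stra8 UMI it was at 77.2 to 109 CPM in Control and at 32.7 to 45.7 CPM in TDP-43 cKO mice. The deleted exon 3 is not at the 3′ end that these libraries read, so that UMIs of Tardbp are only a partial check of the deletion.

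Expression in the smooth muscle marker cells was compared on UMIs summed per mouse, to ask whether somatic cells outside the tubule differ between genotypes. These cells carried 1 null allele in the cKO mice, and the alleles of the Control mice are not given. Effects of the deletion in germ cells and of that null allele therefore cannot be told apart. Of 5612 genes tested with edgeR, 0 (0%) passed an adjusted p of 0.05 in NELF-B cKO against Control, in TDP-43 cKO against Control and in TDP-43 cKO against NELF-B cKO. At an unadjusted p under 0.05 there were 299 genes (5.33%), 410 (7.31%) and 188 (3.35%). DESeq2 also called 0 genes in the first and the last comparison, but 77 (1.37%) lower in TDP-43 cKO than in Control. The lowest adjusted p in edgeR was 0.294, 0.0732 and 0.569. In counts simulated at these depths, 200 of the better counted genes were changed, with the same spread for every gene. In NELF-B cKO against Control, edgeR recovered 0% of them at a log2 fold change of 1 and 48.5% at 2. In TDP-43 cKO against Control it recovered 7.5% and 87%. A gene that was not called can therefore still differ. Without Control 2 edgeR called 90 genes and without Control 4 it called 16 in TDP-43 cKO against Control. Leaving out a NELF-B cKO mouse leaves 1 mouse in that group, so that no count is given for it. In these sums a change in the share of the 2 kinds of cells and a change within a kind cannot be told apart. In sums over only the 159 cells with mural markers, edgeR called 0 genes in each comparison. This left 1 cell in NELF-B cKO 1 and 15 in NELF-B cKO 2, and the fit cannot show that a kind did not change.

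The genes with the lowest p in TDP-43 cKO against Control were genes of male germ cells. Spata4, named for its expression in spermatogenesis, was at 294, 79.5, 203 and 81.6 CPM in the smooth muscle marker cells of Control 1 to 4 and at 0, 11.4 and 11.5 CPM in TDP-43 cKO 1 to 3, with a log2 fold change of -4.31 ± 0.74 (SE) and an adjusted p of 0.0732 in edgeR. Pdcl2, a phosducin-like protein of spermatids, was at 280, 90.9, 166 and 63.1 against 2.46, 11.4 and 11.5 CPM. Pgam2, the muscle and sperm form of phosphoglycerate mutase, was at 191, 114, 209 and 81.6 against 7.38, 17.1 and 28.8 CPM. The mice of the groups did not overlap in any of the 3 genes, which adds no support because the genes were chosen by their low p.

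Free RNA of the same libraries held less of these genes in TDP-43 cKO as well. Spata4 was at 831 to 1096 CPM in the free RNA of the Control mice, at 883 and 163 CPM in NELF-B cKO 1 and 2 and at 16.2, 276 and 173 CPM in TDP-43 cKO 1 to 3. Its level in smooth muscle marker cells was 198 CPM in NELF-B cKO 1 and 34.6 CPM in NELF-B cKO 2. Pdcl2 in these 2 mice was at 1090 and 180 CPM in free RNA and at 198 and 29.6 CPM in the cells. Pgam2 was at 774 and 142 CPM in free RNA and at 149 and 114 CPM in the cells, both within the Control range in the cells. Of the 77 genes that DESeq2 called, 76 had a higher level in germ cells than in the smooth muscle marker cells of the Control mice, as had 45.5% of all genes tested. Their median was 537 CPM in germ cells, 688 CPM in the free RNA of the Control mice and 139 CPM in that of the TDP-43 cKO mice, beside 102 CPM in the smooth muscle marker cells of Control and 8.59 CPM in those of TDP-43 cKO. The part of free RNA in these differences was not tested.

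**Figure D5:**
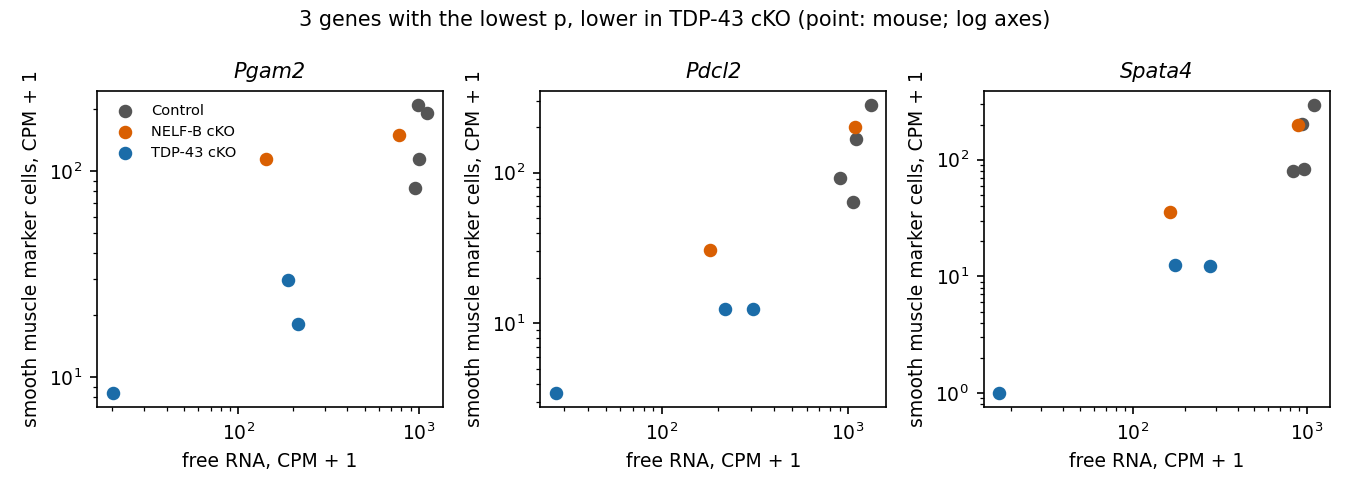
CPM + 1 of Pgam2, Pdcl2 and Spata4 in free RNA (horizontal, log axis) and in the smooth muscle marker cells (vertical, log axis), with 1 point per mouse coloured by genotype. TDP-43 cKO 1 is lowest on both axes in all 3 genes. The Control mice and NELF-B cKO 1 lie at the upper right, with Spata4 in Control at 831 to 1096 CPM in free RNA and 79.5 to 294 CPM in the cells. Pgam2 in NELF-B cKO 2 lies at 142 CPM in free RNA and 114 CPM in the cells.

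The genes with the lowest p that were higher in TDP-43 cKO than in Control included early germ cell genes as well. Hells, a chromatin remodeller of dividing cells, was at 0, 22.7, 21.4 and 18.6 CPM in Control 1 to 4 and at 64.0, 108 and 107 CPM in TDP-43 cKO 1 to 3, with a log2 fold change of 2.28 ± 0.53 (SE) and an adjusted p of 0.120 in edgeR. Tex15, a meiosis gene, was at 14.7, 0, 0 and 7.42 against 7.38, 137 and 104 CPM, with an overlap of the groups. In free RNA, Hells was at 41.1 to 76.9 CPM in the Control mice and at 179 to 278 CPM in TDP-43 cKO mice, and Tex15 at 41.1 to 76.5 and 162 to 264 CPM. Nhs, a regulator of actin remodelling, was at 73.6, 56.8, 90.9 and 145 against 153, 347 and 219 CPM, and at 4.01 to 14.1 and 27.1 to 50.4 CPM in free RNA. Nhs was at 326 CPM in the 48 cells with fewer mural markers and at 152 CPM in the 159.

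In NELF-B cKO against Control, Phlda1, an immediate-early gene of growth factor signalling, had the lowest p. It was at 118, 73.9, 139 and 160 CPM in Control 1 to 4 and had no UMI in either NELF-B cKO mouse, and it was at 93.5, 54.1 and 66.2 CPM in TDP-43 cKO 1 to 3. A floor of 3 counts over the 222727 UMIs of the NELF-B cKO cells is 13.5 CPM. The pooled Control level of 128 CPM was 9.54 times that floor, which covers counting error only and not the spread between cells or mice. Of the 222727 UMIs, 202568 were from NELF-B cKO 2, so that the bound rests mainly on that mouse. In NELF-B cKO 1 the Poisson interval of a gene without a UMI reached 183 CPM, above every Control mouse. Its lack of Phlda1 UMIs therefore cannot show a lower level. Phlda1 was named for its low p, so that the bound adds no support. The adjusted p of Phlda1 was 0.294 in edgeR. Phlda1 was found mostly in the cells with mural markers, at 98.7 against 14.1 CPM. Arl6ip1, a protein that shapes the endoplasmic reticulum, was at 177, 347, 198 and 219 CPM in Control and 49.6 and 49.4 CPM in NELF-B cKO mice, and Pcgf5, a Polycomb subunit, at 58.9, 79.5, 74.9 and 51.9 against 0 and 4.94 CPM. Both had an adjusted p of 0.727 in edgeR.

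Cmss1, Cdk8 and AY036118 were the genes with the lowest p among those higher in NELF-B cKO than in Control. AY036118 was at 250.1, 176, 209 and 163 CPM in Control 1 to 4 and at 943 and 444 CPM in NELF-B cKO 1 and 2. Cdk8, a kinase of the Mediator complex, was at 412, 301, 299.5 and 267 against 1984 and 617 CPM, and Cmss1 at 1515, 994, 1498 and 850 against 4564 and 2848 CPM. The highest value of each was in the 4 cells of NELF-B cKO 1, and all 3 genes had an adjusted p of 0.727 in edgeR. Their values in free RNA were above those of the Control mice as well, with Cdk8 at 126 to 261 CPM in the Control mice and 408 and 265 CPM in NELF-B cKO mice. In TDP-43 cKO 1 to 3 Cdk8 was at 311, 493 and 371 CPM in free RNA and at 241, 586 and 274 CPM in the cells. The part of free RNA was not tested. All 3 genes were also higher in the 48 cells with fewer mural markers than in the 159, with Cdk8 at 703 against 313 CPM. Of the 4 cells of NELF-B cKO 1, 3 were of that kind. In TDP-43 cKO against NELF-B cKO the genes with the lowest p were Phlda1, Cd34 and Pcgf5, higher, and Pgam2, AY036118 and Synpo, lower, with an adjusted p of 0.569 in edgeR for Phlda1, Cd34, Pcgf5 and Pgam2.

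None of the lists of smooth muscle genes held a gene past the adjusted threshold in either comparison with Control. Of 23 genes of the contractile apparatus tested, 2 had an unadjusted p under 0.05 in NELF-B cKO and none in TDP-43 cKO, with median log2 fold changes of 0.36 and 0.04 beside -0.13 and 0.00 over all genes. Of these, Lmod1 was higher and Tpm4 lower in NELF-B cKO, beside 5.33% of all genes tested. Lmod1 was at 486, 301, 390 and 501 CPM in Control 1 to 4 and 1141 and 795 CPM in NELF-B cKO 1 and 2, with a log2 fold change of 1.02 ± 0.29 (SE) and an adjusted p of 0.727 in edgeR. Tpm4, a tropomyosin, was at 383, 233, 193 and 237 against 149 and 133 CPM, with a log2 fold change of -0.94 ± 0.40 (SE) and an adjusted p of 0.862 in edgeR. Of 13 basement membrane genes tested, Hspg2, the heparan sulphate proteoglycan perlecan, and Lamb2, the beta-2 laminin chain, had an unadjusted p under 0.05 in NELF-B cKO, and Col15a1 in TDP-43 cKO, beside 5.33% and 7.31% of all genes tested. Lists of 13 smooth muscle regulators, 6 hedgehog genes, 10 niche ligands and 9 contraction agonist receptors and signalling genes had no gene under an unadjusted p of 0.05 in either comparison.

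Cell cycle and interferon genes were the lists with the largest counts at an unadjusted p in NELF-B cKO, and no gene of either passed the adjusted threshold. Of 8 cell cycle genes tested, 4 (Pcna, Mki67, Top2a and Birc5) were lower at an unadjusted p under 0.05, as were 3.69% of all 5612 genes tested. Mki67, a marker of dividing cells, was at 14.7, 165, 171 and 145 CPM in Control 1 to 4. It had no UMI in either NELF-B cKO mouse, with an adjusted p of 0.727 in edgeR. The pooled Control level of 144 CPM was 10.7 times the same floor, which does not allow for UMIs that cluster in few cells. In NELF-B cKO 1 the Poisson interval of a gene without a UMI reached 183 CPM, above every Control mouse. This bound too therefore rests mainly on NELF-B cKO 2. In TDP-43 cKO 1 to 3 Mki67 was at 83.7, 137 and 20.2 CPM. Of all 207 cells, 27 held an Mki67 UMI, and Mki67 averaged 87.8 CPM over the other kept barcodes, most of them germ cells. Of 8 interferon genes, 4 (Ifitm3, Bst2, Irf1 and H2-K1) were lower at an unadjusted p under 0.05 in NELF-B cKO and 2 (Isg15 and Irf1) in TDP-43 cKO, beside 3.69% and 5.74% of all genes. Ifitm3 was at 427, 750.0, 433 and 375 CPM in Control 1 to 4 and at 49.6 and 276 CPM in NELF-B cKO 1 and 2. Without mixed barcodes, which left 3 cells in Control 1 and 2 in NELF-B cKO 1, Ifitm3 was at 204, 228, 396 and 369 against 80.0 and 246 CPM. The groups then overlapped. Endothelial markers, whose cells held Ifitm3 at 1770 CPM, were at 29.4, 3199, 128 and 22.3 CPM in Control 1 to 4, at 0 and 14.8 CPM in NELF-B cKO 1 and 2 and at 19.7, 330.0 and 683 CPM in TDP-43 cKO 1 to 3. Control 2 was the highest mouse in both, and the part of endothelial RNA in the Ifitm3 values was not tested. Immediate-early genes, which also respond to dissociation, included Fos at 1309, 1858, 2407 and 2801 CPM in Control 1 to 4, 0 and 2147 CPM in NELF-B cKO mice and 2080, 1755 and 1881 CPM in TDP-43 cKO mice. NELF-B cKO 1 had no UMI of Fos, Jun or Junb in its 4 cells, and the other 8 mice overlapped.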

How the data were processed

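Whole testes of 9 mice at PND24 were profiled by 10x Genomics 3′ single-cell RNA-seq, 1 library per mouse. The deposited files hold raw UMI counts of 32285 genes for all barcodes, made by the authors, who demultiplexed with Cell Ranger 6.1.1 and mapped to mm10 with Cell Ranger 7.0.0 (Seurat 4.2.0 and DESeq2 1.36 are also named in the submitters' processing notes, for later steps). From these counts, barcodes passed with over 1000 detected genes and less than 10% of UMIs from mitochondria, and cells were selected by the 5 genes given above. Library totals ran from 119203347 to 159407373 UMIs, and the selected cells of a mouse held 20159 to 406262, which sets the precision of each value. Doublets were not called, and barcodes with markers of another type were counted instead. Other cell types were assigned by marker lists. Free RNA was summed over barcodes of 1 to 100 UMIs.

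Counts were summed per mouse and tested with edgeR 4.0.16 (quasi-likelihood, TMM factors, low-count filter, all 9 mice in 1 fit, Benjamini-Hochberg adjustment, threshold 0.05) in R 4.3.3, with DESeq2 1.42.0 as an alternative. Shares were compared with exact two-sided permutation tests over mice (SciPy 1.17.1). Nothing in the labels ties mice to separate experiments, so that p-values measure the spread between these mice. The scripts were tested on simulated data. Named genes were the 5 selection genes, the targeted genes, up to 4 most abundant genes of each list, the 15 leading genes and the 3 genes per direction with the lowest p in each comparison; others were chosen after their values were seen. The selection genes, lists and comparisons were chosen with earlier results of these data known. Alternatives were stricter and looser cell rules, other filters and tools, a replicate block and leaving out each mouse. Counting barcodes of 1 profile once and using only cells with mural markers were added after seeing the data.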

Additional observations from a re-analysis of the deposited data

Results flagged for a closer look

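Single Control mice stood apart from the other 3 in 7 of 90 sets of 4 values, by Dixon's test at its 95% critical value, which compares the gap to the nearest mouse with the whole range, and chance gives about 1 in 20. In Control 2, which holds the pair of deep barcodes with endothelial genes, the summed endothelial markers were at 3199 CPM against 22.3 to 128 CPM in the other Control mice. Without mixed barcodes they were at 0 CPM, but the rule for mixed barcodes uses these same markers, so that this drop was largely fixed in advance. Cxcl12, a chemokine, was at 869 CPM in Control 2 against 14.7 to 44.5, and at 62.1 CPM without mixed barcodes. Ptn, the growth factor pleiotrophin, was at 489 CPM in Control 2 against 29.4 to 70.5, and at 20.7 CPM without mixed barcodes. Kitl, the ligand of the Kit receptor, was at 352 CPM in Control 2 against 80.2 to 118, and at 166 CPM without them. Ifitm3, an interferon-induced membrane protein, was at 750.0 CPM in Control 2 against 375 to 433, and at 228 CPM without them. In Control 1, with 10 cells, Nrip2, a nuclear receptor interacting protein, was at 324 CPM against 165 to 187. Without mixed barcodes, which left 3 cells in Control 1, Nrip2 was at 679 CPM against 126 to 228. Mki67 was at 14.7 CPM in Control 1 against 145 to 171, and without mixed barcodes, at 67.9 CPM beside 290.0, 58.9 and 147 CPM in Control 2 to 4, it was no longer the lowest.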

How the results depend on the processing

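The comparisons with NELF-B cKO rested on 2 mice, of which NELF-B cKO 1 gave 4 cells, and mice of 1 group differed in the share of cells with mural markers. For the share of kept barcodes in NELF-B cKO against Control, the log2 difference of -0.17 turned to 0.15 with at least 4 of the 5 genes and to 0.050 without mixed barcodes, and ran from -1.75 to 1.42 when 1 mouse was left out (1.42 without NELF-B cKO 1, 0.15 without Control 3 and 0.09 without Control 4). For TDP-43 cKO against Control the same difference kept its direction under the alternatives run, but moved from 1.99 to 1.28 with at least 2000 UMIs, to 2.54 without mixed barcodes and to 0.42 per Sertoli cell, and was at 1.67 to 2.31 with 1 mouse left out, with p of 0.1 to 0.133 in exact permutation tests that can give no smaller value there. For the share of somatic cells in TDP-43 cKO, the difference of 0.02 turned to -0.031 with at least 0.25% of UMIs, -0.15 with at least 1%, -0.20 with at least 2000 UMIs and -0.19 with only cells holding mural markers, and ran from -0.28 to 0.54 with 1 mouse left out, with -0.28 without Control 1, -0.16 without Control 2, -0.21 without TDP-43 cKO 2 and -0.28 without TDP-43 cKO 3. In NELF-B cKO it ran from -3.08 to -1.45, and without mixed barcodes it was -2.06, with p = 0.267 in the exact permutation test.

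The number of genes called in NELF-B cKO against Control was 46 without the filter on low counts and 0 with 1 Control or TDP-43 cKO mouse left out. No count is given without a NELF-B cKO mouse, which leaves 1 mouse in that group. In TDP-43 cKO against Control it was 51 with at least 1% of UMIs, 3 without mixed barcodes, 77 with DESeq2, 273 without the filter and 0 to 90 with 1 mouse left out (90 without Control 2, 16 without Control 4). In TDP-43 cKO against NELF-B cKO it was 19 without the filter and 0 with 1 Control or TDP-43 cKO mouse left out. The share of cells with mural markers moved from 76.8% to 87.0% with a limit of 2 markers and to 46.3% after thinning. The causes were not tested. A fit with the replicate number as a block called 0, 1 and 0 genes. Deviations of same-numbered mice from their group means had correlations of -0.15 to 0.11 in 7 pairs over 5612 genes. The deviations of the 2 NELF-B cKO mice mirror each other and some mice gave few cells. These correlations therefore cannot show whether the numbers pair the mice.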
